A study of Oryza sativa Indica Group with 2 samples.

Results

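The genes described here carry names from the synthesis of very-long-chain fatty acids, wax and cutin, and some belong to other pathways. These genes were taken from the deposited table by the name of each gene's best match in Swiss-Prot, a curated protein database. A gene was a member if that name was a 3-ketoacyl-CoA synthase, an ECERIFERUM protein, a fatty acyl-CoA reductase, a very-long-chain acyl-CoA enzyme, a long chain acyl-CoA synthetase, the wax ester synthase WSD1, a glycerol-3-phosphate acyltransferase or HOTHEAD. This rule gave 93 of 35677 genes. It used no expression value, but the members were chosen with earlier results of these data known. RNA was sequenced from whole seedlings of Indica rice at the tillering stage, in 1 wild-type library (WT) and 1 library of a transgenic line that overexpresses OsGRF7 (GRF7OE, labelled GRF7OE-1). The series compares gene expression between the line and WT. OsGRF7 belongs to the growth-regulating factors, a plant family of transcription factors. The labels give neither the promoter of the transgene nor how many plants went into a library, and the transgenic material is a single line. With 1 library per group, no difference below has a replicate check and the conditions could not be tested.

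Plant surfaces are sealed by the cuticle, a layer of cutin polyester filled and covered with wax. Wax chains start as fatty acids made in the plastid, which are activated to acyl-CoA and lengthened on the endoplasmic reticulum by the fatty acid elongase. The elongase works in a cycle of a condensing enzyme (3-ketoacyl-CoA synthase, KCS), a ketoacyl reductase, a dehydratase and an enoyl reductase, and each turn adds a pair of carbons. The long chains then enter an alkane branch, which needs ECERIFERUM proteins, or an alcohol branch, which uses fatty acyl-CoA reductases and wax ester synthases. Cutin is built by a related route from shorter acyl chains, with hydroxylases, glycerol-3-phosphate acyltransferases and HOTHEAD. Most of these roles were worked out in Arabidopsis, and each rice gene below carries the name of its best match, so its own role in rice is not shown by the name.

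Levels are FPKM, reads scaled to transcript length and library size, so levels of different genes can be set side by side. Each pair of values gives GRF7OE first and WT second. Differences are log2 ratios of FPKM with a pseudocount of 1 added to each value, and a gene counts as 2-fold apart when that ratio is at least 1 in size. Folds of single genes are plain FPKM ratios, and the bracket after a fold is its 95% exact (Clopper-Pearson) interval, computed on reads and so limited to counting error. The libraries held about 17021467 and 16824988 reads assigned to genes. OsGRF7 itself (OS12G0484900) was at 70.7 FPKM in GRF7OE versus 5.10 in WT, 13.9-fold higher [11.9 to 16.2]. One column header of the deposited table names a GRF7 RNAi line instead, against the labels and the FPKM column names. The level of OsGRF7 goes with overexpression, and the FPKM columns named for the overexpression line were used as GRF7OE.

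As a set, these genes sat higher in GRF7OE. Of the 93 members, 8 had no read in either library, which allows up to 3 reads each, and 17 more had a mean under 1 FPKM. The other 68 were compared. Their median log2 ratio was 0.45, where the median over all 23397 genes that average 1 FPKM or more was -0.01. A ratio above 0 was seen in 42 of the 68 members, or 61.8%, and in 48.3% of all genes. At least 2-fold higher were 14 members, or 20.6%, beside 3.24% of all genes. None of the 68 was at least 2-fold lower, beside 1.25% of all genes. The 2-fold count depends on scaling, because GRF7OE has the larger FPKM sum. Scaled to the same sum, which lowers ratios by up to 0.09, 9 members or 13.2% were at least 2-fold higher, beside 2.64% of all genes.

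Most of the higher members stood apart beyond counting error. The interval of the ratio lay above 1 in 38 members (55.9%, beside 24.4% of all genes) and below 1 in 12 (17.6%, beside 25.2% of all genes). In the remaining 18 members it held 1. The authors' deposited table calls 9 of the 68 members significant, all of them higher in GRF7OE, which is 13.2% beside 1.37% of all genes. The authors' deposited table calls no member significantly lower, beside 0.38% of all genes, and its calls compare these 2 libraries rather than the conditions. The higher members were not confined to weakly expressed genes. Among the 27 members that average 15 FPKM or more, 7 passed 2-fold, beside 2.96% of all genes at that level. Among the 17 members between 1 and 5 FPKM the count was 3, beside 3.99%.

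**Figure D1:**
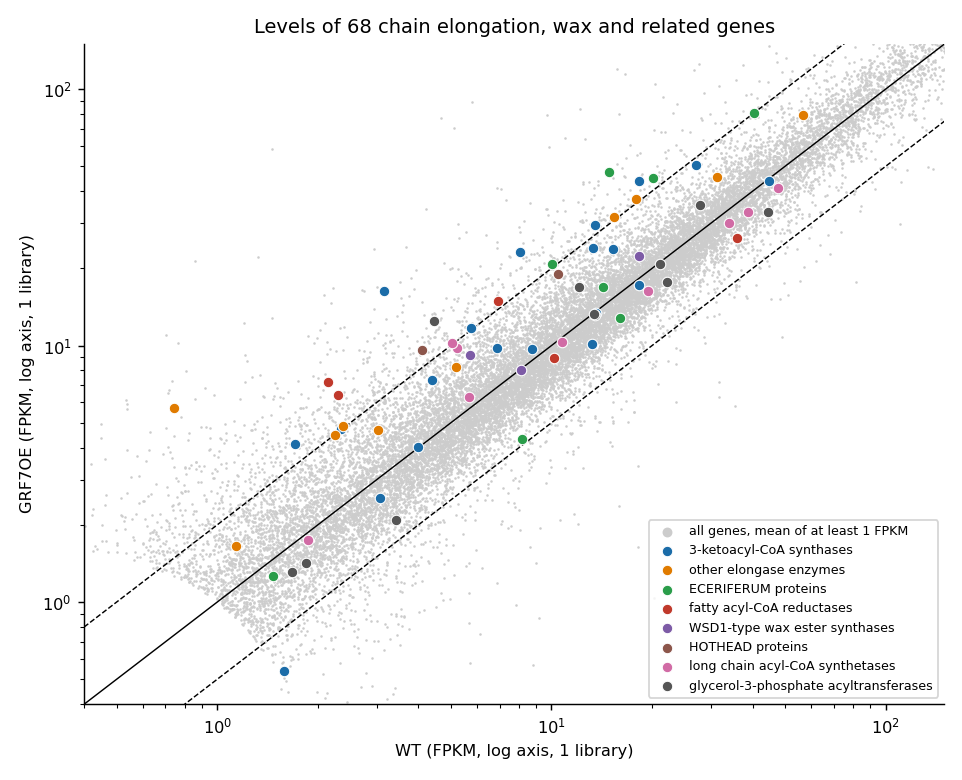
Level of each of the 68 compared members in WT (x axis) and GRF7OE (y axis), in FPKM on log axes, coloured by family over all genes averaging 1 FPKM or more in grey. The solid line marks equal levels and the dashed lines a plain 2-fold ratio, and the long chain acyl-CoA synthetases and WSD1-type synthases lie near or below the upper one.

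The counts by family stand beside the same 48.3% of all genes above 0 and 3.24% at least 2-fold higher. In chain activation no gene was 2-fold apart on the scale with a pseudocount. Long chain acyl-CoA synthetases join fatty acids to coenzyme A, and all 9 members of this family passed the filter. Only 3 of the 9 had a ratio above 0, with a family median of -0.06. The 3 most abundant were slightly lower in GRF7OE. LACS4 (OS01G0655800) was at 41.3 FPKM in GRF7OE versus 47.6 in WT, a chloroplast-type LACS9 (OS12G0168700) at 33.2 and 38.6, and LACS8 (OS05G0317200) at 30.0 and 33.9. Their log2 ratios lay between -0.21 and -0.17. A pair of less abundant members went the other way. LACS2 (OS11G0558300), whose Arabidopsis counterpart supplies acyl-CoA for cutin, was at 10.2 FPKM in GRF7OE versus 5.03 in WT, 2.03-fold higher [1.76 to 2.36]. A second LACS4-type gene (OS01G0681200) was at 9.79 and 5.23 FPKM, 1.87-fold higher [1.63 to 2.15]. The peroxisomal LACS6 type, which feeds fatty acid breakdown, was at 16.3 and 19.5 FPKM in OS12G0143900, and near WT in its close copy OS11G0147000.

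The condensing enzymes set the chain length that an elongase makes, and they were the largest family, with 22 members. Of the 20 that were compared, 14 had a ratio above 0, 4 were at least 2-fold higher, and the median log2 ratio was 0.62. Their summed level was 352 FPKM in GRF7OE versus 228 in WT. The member with the largest log2 ratio of all 68 was a KCS12-type gene (OS03G0382100). It was at 16.3 FPKM on 491 reads in GRF7OE versus 3.15 FPKM on 96 reads in WT, so that its log2 ratio was 2.06. That is 5.19-fold higher [4.16 to 6.52], and the gene is the 83rd highest of all genes compared. The authors' deposited table gives it an FDR of 2.42e-06.

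A KCS5-type gene (OS01G0529800) was at 23.2 FPKM in GRF7OE versus 8.06 in WT, 2.87-fold higher [2.47 to 3.35]. KCS1 (OS03G0245700) was one of the most abundant condensing enzymes, at 43.9 and 18.3 FPKM and 2.40-fold higher [2.17 to 2.67]. All 5 genes that match KCS6, the main condensing enzyme of wax synthesis in Arabidopsis, were higher in GRF7OE. Together they reached 98.8 FPKM in GRF7OE versus 54.7 in WT, with a median log2 ratio of 0.80. The highest of them (OS04G0116800) was at 29.5 and 13.5 FPKM, 2.19-fold higher [1.92 to 2.51], and the smallest ratio was 1.42-fold [1.18 to 1.71] in OS03G0220100. The KCS10 type (OS03G0181500), known in Arabidopsis as FIDDLEHEAD for the organ fusions seen in its mutant, was at 50.7 and 27.1 FPKM, just under the 2-fold line with a log2 ratio of 0.88. Its gene model has only 143 residues.

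Not all condensing enzymes took part. The KCS4-type gene OS05G0568000, at 43.8 FPKM in GRF7OE versus 44.8 in WT, was as abundant as KCS1 but had an interval that held a ratio of 1. The other KCS4-type gene (OS09G0521100) was at 10.2 and 13.2 FPKM, with a log2 ratio of -0.35. The 3 KCS21-type genes had log2 ratios of 0.13, -0.08 and -0.75. The last of these, OS03G0383600, passed the filter only through WT, rested on 12 reads in GRF7OE and 37 in WT and was 2.93-fold lower [1.49 to 6.17] as a plain ratio. The KCS2 type (OS09G0360500), a suberin enzyme in Arabidopsis roots, was at 13.4 and 13.6 FPKM.

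**Figure D2:**
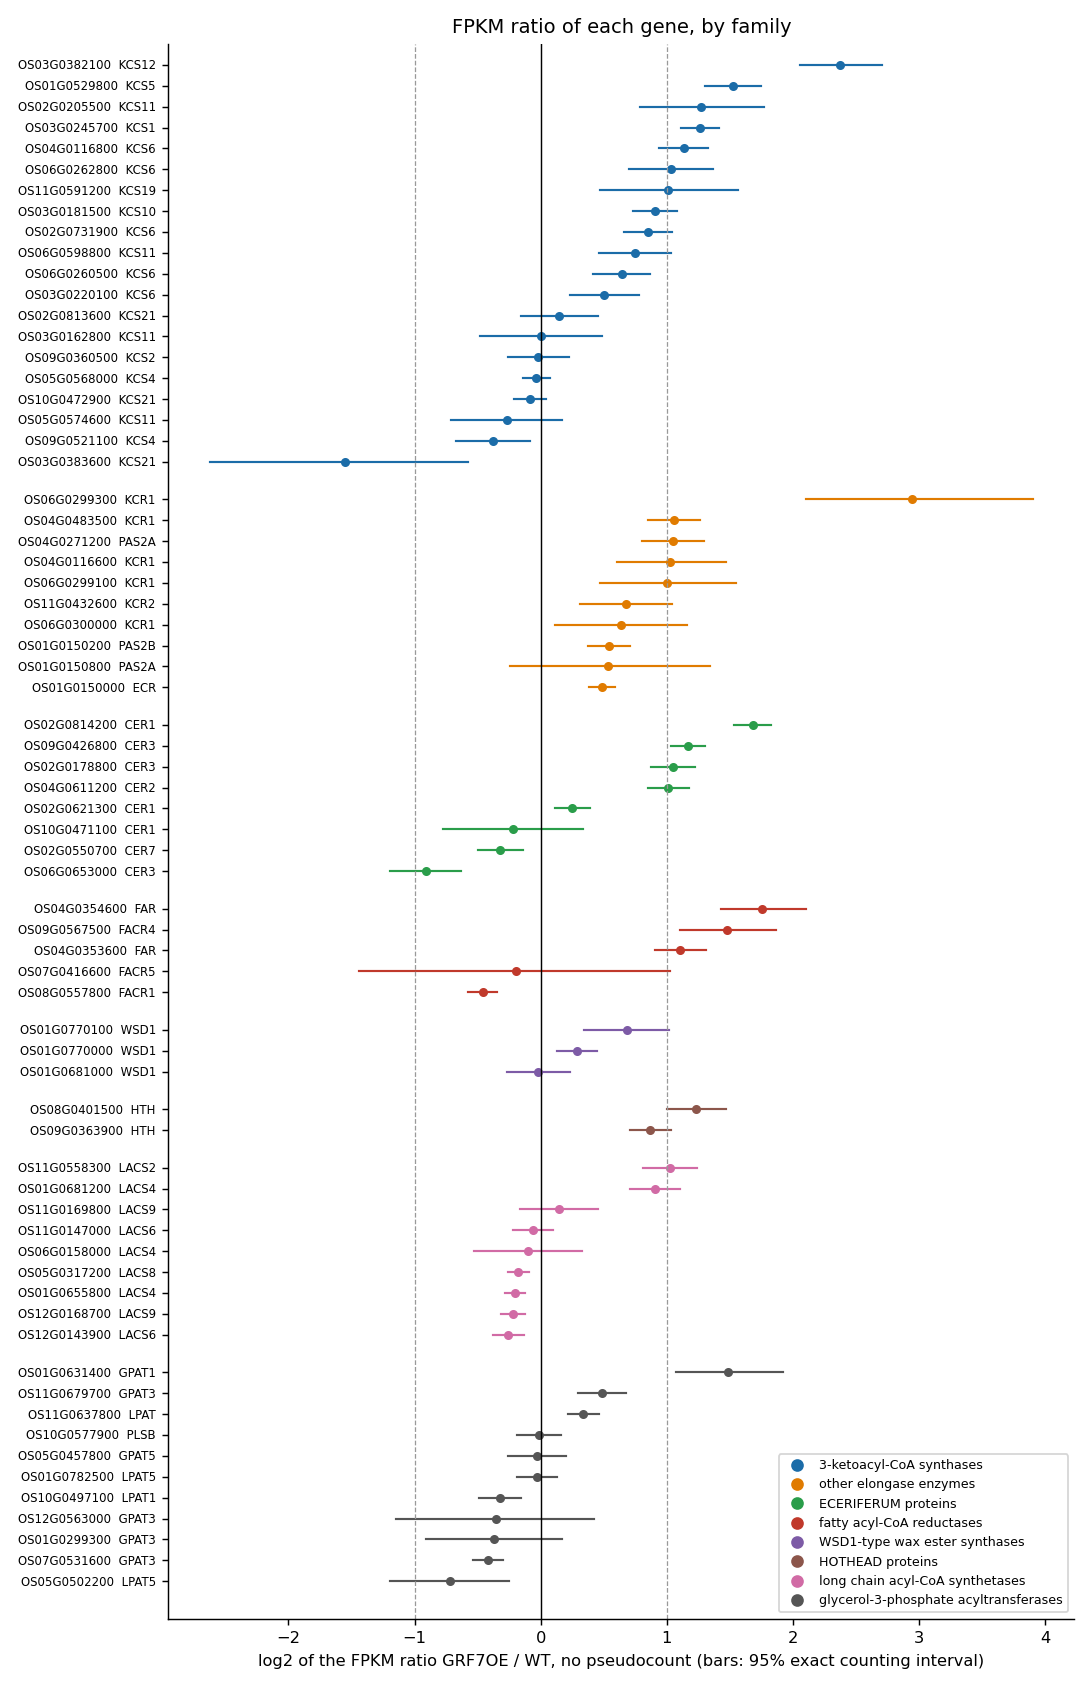
Log2 of the plain FPKM ratio of GRF7OE to WT for each of the 68 compared members, with no pseudocount, as points with 95% exact counting intervals as bars, grouped and coloured by family and labelled with the gene and its best Swiss-Prot match. Points right of 0 are higher in GRF7OE, and the right dashed line marks 2-fold. All 10 reductases and dehydratases of the elongase lie right of 0, and most synthetases of the LACS family lie near it.

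The later steps of the elongase cycle differed in one direction. All 10 compared genes for these steps had a ratio above 0, and in 9 of the 10 the counting interval lay above 1. The median was 0.67. The ketoacyl reductases summed to 65.6 FPKM in GRF7OE versus 31.6 in WT. Their most abundant member (OS04G0483500) was at 37.2 and 17.9 FPKM, 2.08-fold higher [1.80 to 2.41]. A further reductase (OS06G0299300) was at 5.71 FPKM on 97 reads in GRF7OE versus 0.741 FPKM on 13 reads in WT. It was 7.70-fold higher [4.30 to 14.98] and its log2 ratio was 1.95, on an interval that is wide because of the few WT reads. It was under 1 FPKM in WT and passed the filter only through GRF7OE, so it had to differ, and it is 1 of the 14 members counted as at least 2-fold higher.

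The dehydratases of the cycle are named after PASTICCINO 2 of Arabidopsis. PASTICCINO 2A (OS04G0271200) was at 31.8 FPKM in GRF7OE versus 15.4 in WT, 2.07-fold higher [1.74 to 2.46], and just passes the 2-fold line. PASTICCINO 2B (OS01G0150200) was at 45.5 and 31.4 FPKM, 1.45-fold higher [1.29 to 1.63]. The single enoyl reductase (OS01G0150000), which closes the cycle, was the most abundant of these enzymes. It stood at 79.1 FPKM in GRF7OE versus 56.6 in WT, 1.40-fold higher [1.30 to 1.502].

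In the alkane branch, CER1 and CER3 act together in Arabidopsis to turn very-long-chain acyl groups into alkanes. A CER1-type gene (OS02G0814200) was at 47.7 FPKM on 1616 reads in GRF7OE versus 14.9 FPKM on 485 reads in WT. It was 3.20-fold higher [2.89 to 3.55] and its log2 ratio was 1.62. Its gene model has only 153 residues, against 619 in the CER1-type gene OS02G0621300. The CER3-type gene OS09G0426800 was at 45.0 and 20.1 FPKM, 2.24-fold higher [2.04 to 2.46]. The authors' deposited table calls both significant, with FDR values of 0.00339 and 0.0115. A second CER3-type gene (OS02G0178800) was at 20.8 and 10.1 FPKM, and a second CER1-type gene (OS02G0621300) at 17.0 and 14.3 FPKM. Their log2 ratios were 0.98 and 0.24.

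The most abundant member of the whole set by mean level after the enoyl reductase was OS04G0611200, at 81.1 FPKM in GRF7OE versus 40.3 in WT. The deposited description calls it ECERIFERUM 1, while the matched entry is that of Arabidopsis CER2, a protein of the BAHD acyltransferase family that helps the elongase make the longest chains. Its log2 ratio was 0.99, just short of the 2-fold line, and its MSU identifier is shared with another row of the table. The remaining CER3-type gene (OS06G0653000) went against the others, at 4.34 FPKM in GRF7OE versus 8.16 in WT, 1.88-fold lower [1.55 to 2.29]. At -0.78 on the log2 scale it was the lowest of the 68. CER7 (OS02G0550700), an exosome subunit that in Arabidopsis controls CER3 transcript and is no lipid enzyme, was at 12.9 and 16.1 FPKM. Across the 9 ECERIFERUM members, the summed level was 230 FPKM in GRF7OE versus 125 in WT.

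The alcohol branch was split. Fatty acyl-CoA reductases make primary alcohols, and 3 of the 5 compared members were at least 2-fold higher. A gene that matches the alcohol-forming reductase of jojoba seeds (OS04G0354600) was at 7.24 FPKM in GRF7OE versus 2.14 in WT, 3.38-fold higher [2.69 to 4.28]. A neighbouring gene of the same type (OS04G0353600) was at 14.9 and 6.93 FPKM, 2.15-fold higher [1.87 to 2.48]. FAR4 (OS09G0567500) was at 6.39 and 2.30 FPKM, 2.78-fold higher [2.15 to 3.64]. In contrast, the most abundant reductase, a FAR1 type (OS08G0557800), was at 26.2 FPKM in GRF7OE versus 36.0 in WT, 1.38-fold lower [1.27 to 1.49]. The summed level of the family was therefore close in both libraries, at 63.9 and 57.9 FPKM. FAR5 (OS07G0416600) rested on 12 and 14 reads, and its level of 8.91 and 10.2 FPKM comes from a model of 87 residues. The wax ester synthases, which join alcohols to acyl groups, had smaller ratios. The 3 compared WSD1-type genes were at 22.4 and 18.3 FPKM (OS01G0770000), 9.16 and 5.72 FPKM (OS01G0770100), and 8.04 and 8.14 FPKM (OS01G0681000), and none was 2-fold apart.

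**Figure D3:**
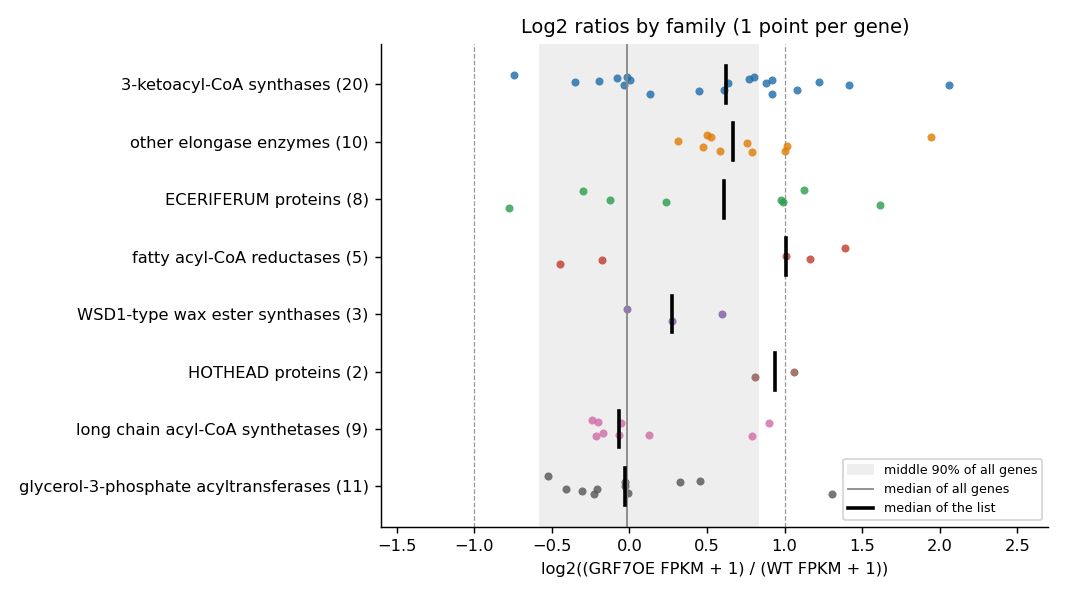
Log2 ratios of FPKM with a pseudocount of 1 for the compared members of each of the 8 families (numbers in brackets), 1 point per gene, with the family median as a black bar. The grey line is the median of all genes and the grey band holds the middle 90% of them, from -0.58 to 0.83, and the dashed lines mark 2-fold. The medians of the synthetases (-0.06) and of the acyltransferases (-0.03) lie near 0, and those of the elongase families at 0.62 and 0.67.

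On the cutin side, HOTHEAD is an oxidoreductase that in Arabidopsis helps form the dicarboxylic acids of cutin and keeps flower organs apart. Of its 6 rice matches, 2 were expressed above the filter and both were higher. OS08G0401500 was at 9.63 FPKM in GRF7OE versus 4.09 in WT, 2.35-fold higher [2.01 to 2.77], and OS09G0363900 was at 19.1 and 10.5 FPKM, 1.83-fold higher [1.63 to 2.04]. The next, OS10G0524500, had 10 reads in each library. Glycerol-3-phosphate acyltransferases fall into land-plant enzymes for cutin and suberin and enzymes of membrane and storage lipids, and the rule takes both. Of the 11 compared, 3 had a ratio above 0 and the median was -0.03.

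GPAT1 (OS01G0631400) was the 1 acyltransferase at least 2-fold higher, at 12.5 FPKM on 177 reads in GRF7OE versus 4.46 FPKM on 65 reads in WT, 2.81-fold [2.10 to 3.79]. A GPAT3-type gene (OS11G0679700) was at 16.9 and 12.1 FPKM, 1.40-fold higher [1.22 to 1.60]. The GPAT5 type (OS05G0457800), a suberin enzyme in Arabidopsis, was at 13.2 and 13.5 FPKM. OS07G0531600, whose best match is a chicken GPAT3 and which therefore belongs with membrane lipid enzymes by name, was at 33.2 and 44.4 FPKM, 1.34-fold lower [1.23 to 1.45]. The lysophosphatidic acid acyltransferases of membrane lipid synthesis included OS11G0637800 at 35.2 and 27.8 FPKM, OS01G0782500 at 20.8 and 21.2 FPKM, and OS05G0502200 at 2.08 and 3.43 FPKM.

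Membrane lipid, plastid and peroxisome enzymes, which the rule takes in by name, leaned lower in GRF7OE, unlike the rest. Of 10 such members compared, 2 had a ratio above 0, beside 48.3% of all genes, and their median was -0.13. Their counting interval lay below 1 in 5 members (50%, beside 25.2% of all genes), above 1 in 1 and held 1 in 4. Of the other 58 members compared, 40 had a ratio above 0, and their median was 0.59. All 14 members at least 2-fold higher were among these 58. Their interval lay above 1 in 37 and below 1 in 7. This division was drawn after the values were seen, so it is a description only.

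Of the 25 members under the filter, OS01G0329000, a GPAT3 type, had the most reads, at 1.01 and 0.120 FPKM on 24 and 3 reads. Its ratio of 8.42 had an interval from 2.56 to 43.7. The other members under the filter had at most 15 reads in a library, too few to place them above or below WT.

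Member genes also lie beside each other. The deposited table is ordered by gene identifier, and 27 of the 93 members fell into 9 runs in which each gene was at most 2 rows from the next. Neighbours did not always share their direction. The KCS12-type gene at a log2 ratio of 2.06 stood beside the KCS21-type gene OS03G0383600 at -0.75. A ketoacyl reductase (OS04G0116600, 4.84 and 2.38 FPKM) stood beside the KCS6-type gene OS04G0116800, and both were higher in GRF7OE, with log2 ratios of 0.79 and 1.08. In the run of 4 alcohol-forming reductases 2 genes were at least 2-fold higher and the other 2 had no read in either library. In a run of 6 ketoacyl reductases the 3 compared genes had log2 ratios of 0.76, 1.95 and 0.50, and the other 3 had at most 4 reads. How reads that fit several close copies were counted is not given in the sources used here, so values within such runs, and in the LACS6 and LACS9 pairs, are uncertain.

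**Figure D4:**
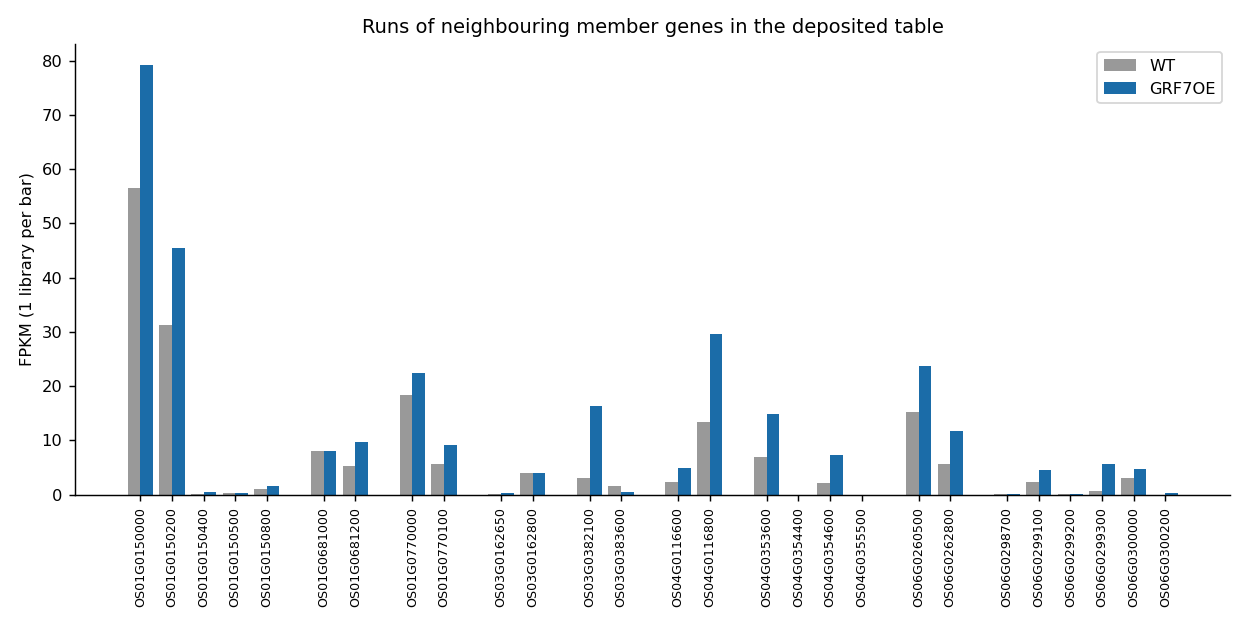
FPKM in WT (grey bars) and GRF7OE (blue bars), 1 library per bar, for the 27 members in 9 runs of neighbouring genes, in the order of the deposited table. In several runs a single gene or a pair carries most of the expression, and the other copies are near 0.

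Other genes of the pathway were taken from 9 lists matched on the same description column, and their counts stand beside the same 48.3% of all genes above 0 and 3.24% at least 2-fold higher. The list for fatty acid synthesis in the plastid, which supplies the chains, had 20 of 23 compared genes (87.0%) above 0. Its median was 0.24, with none 2-fold apart. The list held no gene named as a dehydratase, enoyl reductase or desaturase of this synthesis, so those steps are not covered. Its match also takes in mitochondrial proteins, so these values are not of plastid genes alone. Among them are the acyl carrier proteins OS03G0352800, OS05G0377000 and OS07G0222800, with log2 ratios of 0.41, 0.19 and 0.25. The name match for hydroxylases of cutin and suberin also takes in matches to cytochromes P450 94B3 and 94C1. Their part in cutin or suberin was not checked, so the counts may not be of such hydroxylases alone. Of the compared genes on this list, 15 of 21 (71.4%) were above 0 and 4 (19.0%) were at least 2-fold higher. Those 4 were led by a pair of the CYP86A family, whose Arabidopsis members put the end hydroxyl on cutin acids. OS03G0138200 was at 15.8 FPKM in GRF7OE versus 2.09 in WT, 7.55-fold higher [5.67 to 10.2]. OS08G0262500 was at 24.3 and 3.68 FPKM, 6.59-fold higher [5.34 to 8.21]. The other 2 were a CYP86B1 type (OS10G0486100) at 45.3 and 18.4 FPKM and a further CYP86A type (OS02G0666500) at 19.1 and 7.51 FPKM.

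Lipid export had 18 of 22 genes (81.8%) above 0 and a median of 0.35, though its name match also takes in anchored proteins that carry no lipid. Of the 18, 3 (OS09G0472200, OS12G0409700 and OS04G0693300) were under 1 FPKM in WT. They passed the filter only through GRF7OE and so had to be above 0. A match to the glycosylphosphatidylinositol-anchored lipid transfer protein LTPG2 (OS01G0814100) was the list's 1 gene at least 2-fold higher, at 68.1 and 21.8 FPKM. The other LTPG2 match (OS05G0489200) was more abundant, at 108 and 66.5 FPKM, 1.63-fold higher [1.47 to 1.80]. Of the regulators, both compared genes that match WIN1, an ethylene response factor that turns on cuticle genes in Arabidopsis, were at least 2-fold higher. OS02G0202000 was at 13.3 and 4.44 FPKM, 3.01-fold higher [2.16 to 4.25], and OS06G0604000 was at 22.0 and 10.2 FPKM, 2.16-fold higher [1.84 to 2.54]. The second of these falls under the 2-fold line when both libraries are scaled to the same sum. WRI1 (OS08G0171100), a regulator of plastid fatty acid synthesis, was at 17.1 and 19.0 FPKM.

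Acyl-CoA-binding proteins had a median of 0.02, sphingolipid genes 0.01 and the cutin and suberin acyltransferases 0.15, with none 2-fold apart in any of the 3 lists. Peroxisomal oxidation, which breaks fatty acids down, had 3 of 9 genes above 0 and a median of -0.14. Membrane desaturases were mixed, with 6 of 9 genes above 0 and a median of 0.37. Their counting interval lay above 1 in 5 genes and below 1 in 3, with 1 gene at least 2-fold higher (OS12G0104400, 23.7 and 11.2 FPKM) and 1 at least 2-fold lower (OS07G0417200, 16.9 and 35.7 FPKM). The higher one falls under the 2-fold line under the same-sum scaling. The desaturases summed to 452 FPKM in GRF7OE versus 594 in WT. Their most abundant gene, an omega-6 type (OS02G0716500), was at 330 and 474 FPKM, 1.44-fold lower [1.39 to 1.49].

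**Figure D5:**
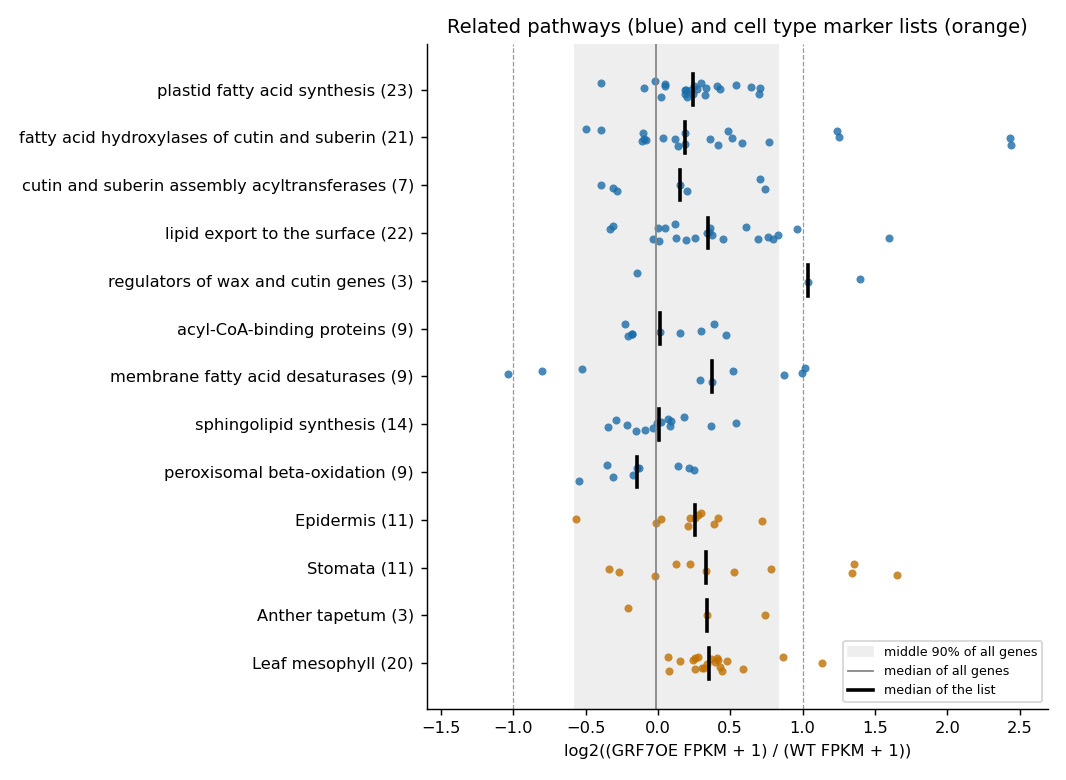
Log2 ratios of FPKM with a pseudocount of 1 for compared genes of the 9 related pathway lists (blue) and of 4 marker lists (orange), 1 point per gene, with list medians as black bars. The grey line is the median of all genes and the grey band the middle 90% of them. The 2 points near 2.44 are CYP86A hydroxylases, and root endodermis markers are not drawn because none passed the filter.

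Wax and cutin are made mainly in the epidermis, and in RNA from whole seedlings more cells of a type and more RNA per cell cannot be told apart. Markers were checked for that reason. Their counts stand beside the same 48.3% of all genes above 0 and 3.24% at least 2-fold higher. Of 12 ROC homeobox genes, which mark the epidermis, 11 were compared, 9 had a ratio above 0 and none was 2-fold apart. Their median was 0.25, and they summed to 155 FPKM in GRF7OE versus 136 in WT, with 1 at 0 in both. Of 15 genes matched as stomatal markers 11 were compared, with list sums of 85.6 and 61.4 FPKM. Of the 11, 8 were above 0 and 3 were at least 2-fold higher. Of these 3, MUTE (OS05G0597000, 24 and 3 reads) and EPF2 (OS04G0637300, 8 and 1 reads) were under 1 FPKM in WT. Both passed the filter only through GRF7OE, so the count of these 2 supports nothing. The remaining gene, a match to EPFL9 (OS01G0914400), was at 5.23 FPKM in WT and so did not depend on GRF7OE to pass. It rested on 162 reads in GRF7OE versus 55 in WT and was 2.86-fold higher [2.10 to 3.96]. No compared gene of this list was at least 2-fold lower. Leaf mesophyll genes were above 0 in all 20 compared, with a median of 0.35 and sums of 46282 and 36248 FPKM. Of 9 genes matched as tapetum markers 5 were at 0 in both libraries and 3 were compared, with a median of 0.34 and sums over the list of 53.3 and 43.2 FPKM. The interval lay above 1 in 2 of the 3, the strictosidine synthase matches OS03G0750700 (43.3 and 33.95 FPKM) and OS12G0138800 (3.79 and 1.87 FPKM). The match on TDR also took in receptor-like kinases of that name, among them the remaining compared gene, OS08G0148300 (6.16 and 7.27 FPKM). The strictosidine synthase matches were also taken by name, and whether they mark the tapetum was not checked. The counts, median and sums of this list are therefore not those of tapetum markers alone, and nothing about the tapetum is read from them. The 3 root endodermis markers summed to 0.651 and 0.340 FPKM, with 2 at 0 in both. The part of these shifts in the differences of the wax genes was not tested.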

How the data were processed

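The authors deposited 1 table of 35677 genes. Per the submitters' processing notes, the tools included Bowtie and Cuffdiff. Tool versions and the genome build were not given in the sources used here. Total RNA (3 µg) per sample was the input, per the labels' protocols. The FPKM columns are the authors' values. The deposited count columns hold a scaled signal that grows in steps of 0.963 (GRF7OE) or 0.954 (WT) per read. Among values below 10000, 99.3% in GRF7OE and 99.2% in WT lay within 0.05 of a whole number of such steps, so reads were taken as the value divided by the step. The p-value and FDR columns are also deposited values, in which 1 library is set against the other. A gene is called significant there when its FDR does not exceed 0.05 and its log2 ratio is 1 or more in size.

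Log2 ratios with a pseudocount of 1 were computed for the 23397 genes that average 1 FPKM or more, and a pseudocount understates the ratio of low genes. Intervals are exact Clopper-Pearson intervals from reads, and they and the floor of 3 reads cover counting error only. Named were OsGRF7, every member at least 2-fold apart, the 3 most abundant members and the 3 with the largest absolute log2 ratio in each of the 8 families, and up to 3 genes per list. Other genes were named after their values were seen. The members and lists were chosen with earlier results of these data known. The gene table at hand could be linked to none of the members, so no coordinates or sequences are given and promoters were not analysed here. Alternatives were other pseudocounts, filters, scalings, fold sizes and call rules, and the count columns in place of FPKM. The steps were tested on simulated data. Calculations ran in Python 3.11.15 with pandas 2.3.3, SciPy 1.17.1 and NumPy 2.4.6, and plots in Matplotlib 3.10.9.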

Additional observations from a re-analysis of the deposited data

How the results depend on the processing

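No paired analysis was possible because each group has 1 library. The 77 named genes gave 529 values under the alternatives, of which 527 stayed within the gene's counting interval or within 0.1 of the reported log2 ratio, 2 moved further and 0 turned the direction of a gene 2-fold apart. The count of 14 members at least 2-fold higher became 9 under a scaling to equal FPKM sums, beside 2.64% of all genes. It was 29 (42.6%) at 1.5-fold, beside 9.18% of all genes, and 1 (1.47%) at 4-fold, beside 0.40%. By the authors' deposited calls it was 9, beside 1.37% of all genes, and by intervals above 1 it was 38, beside 24.4%. The count of 0 lower members became 1 with a pseudocount of 0.1 or 0.5 or from the count columns, beside 2.19%, 1.61% and 2.34% of all genes. It was 2 at 1.5-fold, beside 4.79% of all genes, and 12 by intervals, beside 25.2%. The median of all members was 0.27 without a filter and 0.59 without glycerolipid, plastid and peroxisome members, an alternative chosen after seeing the data. Without a filter the medians were 0.50 for the later elongase steps, -0.032 for fatty acyl-CoA reductases, 0.13 for WSD1 and 0.052 for HOTHEAD, because members with few reads enter. At a mean of at least 5 FPKM they were 0.98 for ECERIFERUM proteins and -0.18 for fatty acyl-CoA reductases. With a pseudocount of 0.1 they were 0.81 for the later elongase steps and 1.04 for HOTHEAD. From the count columns they were 1.17 for fatty acyl-CoA reductases, -0.13 for glycerol-3-phosphate acyltransferases and 1.07 for HOTHEAD. Genes 2-fold apart in lipid export numbered 3 with a pseudocount of 0.1, 2 from the count columns, 7 at 1.5-fold and 0 at 4-fold. Scaled to the same sum, regulators and desaturases had 1 each. At 1.5-fold desaturases had 5, plastid synthesis 3 and assembly acyltransferases 2. At 4-fold hydroxylases had 2, and regulators and desaturases 0. Over all genes, 9.18% were higher and 4.79% lower at 1.5-fold, and 0.40% and 0.11% at 4-fold. These shares were 4.90% and 2.19% with a pseudocount of 0.1, 4.39% and 2.34% from the count columns, and 2.64% and 1.49% scaled to the same sum. Where no construction is named, the cause was not tested. Depth limits members under 50 reads, 7 of the 68 compared.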

Other observations

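A second family of wax synthases, named after the jojoba enzyme, was looked at after the other lists. Of its 8 genes 2 passed the filter. OS02G0468100 was at 11.5 FPKM on 112 reads in GRF7OE and 7.08 FPKM on 73 reads in WT, 1.63-fold higher [1.2 to 2.21]. OS04G0481900 rested on 8 and 15 reads.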
